A study of Mus musculus with 3 samples.

Results

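Clade B serpins and cystatins are families of protease inhibitors that act largely inside epithelial and immune cells or just outside them. Clade B serpins, encoded by Serpinb genes, mostly trap serine proteases and some cysteine proteases by offering a loop that the enzyme cuts, after which inhibitor and enzyme stay joined. Cystatins bind the active site of cysteine proteases such as cathepsins without being cut; the stefins among them (Csta, Cstb and Stfa genes) are small and mostly intracellular, whereas the type 2 cystatins (Cst genes) are secreted. In stratified epithelium stefin A is a keratinocyte protein of the cornified envelope, and several of the Serpinb genes are keratinocyte genes. The genes were chosen by symbol, as every gene identifier of the count table whose symbol begins with Serpinb, with Cst and a digit, or with Stfa, or is Csta1, Csta2, Csta3 or Cstb. The rule found 44 of 24028 identifiers, of which 27 are clade B serpins, 9 type 2 cystatins and 8 stefins; 2 further symbols that fit it in the RefSeq annotation, Serpinb9h and the pseudogene Serpinb1-ps1, were not analysed here.

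The libraries came from papillomas of the skin of C57BL/6 mice, benign tumours of the epidermis that follow a dose of the mutagen DMBA and repeated application of the tumour promoter TPA. The genotypes were Tg46, which carries a transgene for galectin-7 (Gal-7, encoded by Lgals7) under the keratin-14 promoter and so in the basal keratinocytes where that promoter is active, Lgals7-/-, which lacks galectin-7, and wild-type, in which Gal-7 comes from the mouse's own gene. Each genotype gave 1 library, from the pooled RNA of 3 tumours, and all the tumours had been through the same DMBA/TPA protocol. The comparisons ask how far papillomas with more galectin-7 or with none differ in expression from wild-type and from each other. The values are read counts per gene.

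Counts totalled 354499 in Tg46, 312600 in Lgals7-/- and 172011 in wild-type, so that 1 count stands for several CPM. Lgals7 itself held 4, 2 and 0 counts in Tg46, Lgals7-/- and wild-type, too few to check the genotype labels. All 12 keratinocyte markers examined had counts in every library, and their summed counts were 975, 756 and 191 in Tg46, Lgals7-/- and wild-type. Markers of other cells held fewer counts, with sums of 167, 153 and 72 over 8 fibroblast genes and of 112, 129 and 54 over 10 macrophage genes. With 1 library per genotype there was no test, and every interval below is an exact 95% interval that covers counting error alone, as duplicate reads of 1 molecule could not be recognised. A floor of 3 counts, used where a library held 0, corresponds to 8.95, 9.11 and 17.4 CPM (counts scaled to a library of 1e+06 counts) in Tg46, Lgals7-/- and wild-type. In a bulk library a cell type that is rarer and a cell type with less RNA of a gene per cell cannot be told apart.

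The 5′ sequence of Csta1 is shown because its counts differed most firmly between the libraries, and those of Serpinb9c and Serpinb9e because these relatives from the same chromosome 13 cluster stood on opposite sides of wild-type in Tg46. Each is the RefSeq promoter window on build GRCm38.p6, which is the mm10 assembly, from 250 bases before the annotated start to 50 bases from it, read 5′ to 3′ on the gene's strand. Capitals mark those last 50 bases. The Csta1 window is chr16:36131140-36131439 on the minus strand, that of Serpinb9c is chr13:33159705-33160004 on the minus strand, the farther upstream of 2 annotated starts, and that of Serpinb9e is chr13:33249358-33249657 on the plus strand.
Csta1: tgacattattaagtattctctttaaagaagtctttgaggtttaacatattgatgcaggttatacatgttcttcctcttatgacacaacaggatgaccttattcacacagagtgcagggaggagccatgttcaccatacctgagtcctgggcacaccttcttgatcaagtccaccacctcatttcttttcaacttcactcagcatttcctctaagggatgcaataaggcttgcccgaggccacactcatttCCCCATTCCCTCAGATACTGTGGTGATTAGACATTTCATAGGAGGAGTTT
Serpinb9c: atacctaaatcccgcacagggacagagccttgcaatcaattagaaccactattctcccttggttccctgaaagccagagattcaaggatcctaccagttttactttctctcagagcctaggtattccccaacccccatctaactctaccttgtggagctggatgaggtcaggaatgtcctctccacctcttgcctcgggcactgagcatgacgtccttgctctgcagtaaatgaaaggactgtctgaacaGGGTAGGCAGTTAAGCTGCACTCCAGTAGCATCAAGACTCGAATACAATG
Serpinb9e: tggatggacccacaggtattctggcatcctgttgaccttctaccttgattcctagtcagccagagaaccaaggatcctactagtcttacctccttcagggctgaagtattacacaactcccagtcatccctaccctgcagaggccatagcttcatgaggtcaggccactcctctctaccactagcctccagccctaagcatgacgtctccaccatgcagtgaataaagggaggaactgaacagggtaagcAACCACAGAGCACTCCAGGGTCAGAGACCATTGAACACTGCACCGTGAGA
The Serpinb9c and Serpinb9e windows could be aligned over 224 bases with 72.8% identity, and the coding sequences of the pair were 77.1% identical. None of the 3 windows holds TGANTCA (N being any base) or TATAAA, on either strand. TGANTCA is looser than the site bound by AP-1, which has G or C in place of N. AP-1 is made of the Fos and Jun factors that phorbol esters such as TPA are known to activate.

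TGANTCA was found, on either strand, in 24.4% of the 45 promoter windows of the 39 genes that had one, and in 7.81% of all 32841 windows of this length in the table. The matches were uneven between loci. They were present at 7 of 11 Serpinb genes of chromosome 1, at 0 of 14 of chromosome 13, at 2 of 7 cystatins of chromosome 2 and at 1 of 7 stefins of chromosome 16. On chromosome 1 the 4 genes with no match were the Serpinb3 copies. TATAAA was in 26.7% of the windows of these genes and in 13.6% of all windows. A match is only a run of letters, and no binding was measured. The AP-1 site itself, with G or C in place of N, was at Cst10, Serpinb7, Serpinb8 and Stfa3. The matches at Serpinb5, Serpinb10, Serpinb11 and Cst7 have A or T there and are not that site. The percentages for TGANTCA cover any base at N, and the share of windows with the AP-1 site was not computed. The match of each gene with at least 10 counts in a library is shown, on build GRCm38.p6 and the plus strand, with the motif in capitals and 20 bases on either side. They lie at chr1:106861015-106861061 for Serpinb5, whose match begins 140 bases before the start, at chr1:107528929-107528975 for Serpinb10, 54 bases before, at chr1:107362113-107362159 and chr1:107362218-107362264 for Serpinb11, 181 and 76 bases before, and at chr2:150570389-150570435 for Cst7, 6 bases before.
Serpinb5: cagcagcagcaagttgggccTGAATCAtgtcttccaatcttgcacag
Serpinb10: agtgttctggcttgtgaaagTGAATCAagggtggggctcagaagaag
Serpinb11, upstream match: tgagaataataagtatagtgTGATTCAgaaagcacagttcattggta
Serpinb11, downstream match: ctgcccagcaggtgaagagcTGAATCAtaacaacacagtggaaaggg
Cst7: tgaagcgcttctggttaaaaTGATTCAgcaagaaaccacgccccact

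Of the 44 genes, 13 reached 10 counts in at least 1 library, namely 10 serpins and 3 cystatins. A further 16 had their highest count between 4 and 9, 13 between 1 and 3, and 2 (Cst9 and Csta3) were at 0 in every library. The 13 passed through different libraries: 1 of them (Serpinb5) had 10 counts in all 3 libraries, 3 (Csta1, Cst6 and Serpinb6a) in Tg46 and Lgals7-/-, and 9 in a single library. A gene that passed through 1 high library was bound to look different there, so the number of genes called below is a description and carries no support for a change of the families as a whole. A gene was called higher or lower when the ratio of scaled counts, with 0.5 counts added to each, was at least 2-fold and its interval excluded 1.

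Csta1 (Entrez 209294, chromosome 16, 36119946 to 36131241, minus strand, GRCm38) stood apart from the rest of the set. It encodes stefin A, an inhibitor of cathepsins. It held 150 counts in Tg46, 62 in Lgals7-/- and 8 in wild-type, or 448, 188 and 46.3 CPM. It was high in Tg46, intermediate in Lgals7-/- and low in wild-type. The ratio was 2.37 (1.76 to 3.25) in Tg46 over Lgals7-/-, 9.13 (4.78 to 22.8) in Tg46 over wild-type and 3.86 (1.94 to 9.84) in Lgals7-/- over wild-type.

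Csta1 alone made up 41.8% (36.6 to 47.1) of the counts of the 44 genes in Tg46, 25.9% (20.5 to 32.0) in Lgals7-/- and 6.20% (2.72 to 11.9) in wild-type (exact Clopper-Pearson intervals). Its rank by counts among all identifiers was 188 in Tg46, 450 in Lgals7-/- and 6293 in wild-type. Per length, its level was 161, 67.7 and 16.6 CPM per kb of exon. Its closest relative in the set is Csta2, with 84.4% identity of the coding sequences. Csta2 and the other stefins of the cluster held 0 to 2 counts each in every library.

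The summed keratinocyte markers, once scaled, had the same order of libraries as Csta1. Against wild-type, 9 of the 12 markers passed the call upwards in Tg46 and 5 in Lgals7-/-, beside 13.7% and 13.3% of all genes. The summed counts of the 12 gave ratios of 2.63 (2.25 to 3.09) and 2.08 (1.77 to 2.45). Trp63 went the other way, at 0.633 (0.320 to 1.29) and 0.555 (0.270 to 1.15), as did Sfn in Lgals7-/- over wild-type, at 0.811 (0.242 to 3.26). In Tg46 over Lgals7-/- 2 markers passed the call, beside 8.43% of all genes, and the ratio of the sums was 1.27 (1.15 to 1.39). Ivl was 0.747 (0.529 to 1.05) there, and Krt16 and Dsc3 were each 0.982. For each 100 counts of these markers there were 15.4 counts of Csta1 in Tg46, 8.20 in Lgals7-/- and 4.19 in wild-type. Scaled to these markers, a choice made after seeing the data, the ratio of Csta1 was 1.87 (1.39 to 2.56) in Tg46 over Lgals7-/- and 3.47 (1.82 to 8.66) in Tg46 over wild-type. In Lgals7-/- over wild-type it was then 1.86 and its interval of 0.934 to 4.74 included 1. Beyond this scaling, the part of the keratinocyte share in the difference was not tested.

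Neutrophils also express stefin A genes. The summed counts of 12 neutrophil markers were 81 in Tg46, 102 in Lgals7-/- and 41 in wild-type. The ratio of this sum was 0.780 (0.575 to 1.05) in Tg46 over Lgals7-/-, 1.02 (0.691 to 1.52) in Tg46 over wild-type and 1.31 (0.900 to 1.92) in Lgals7-/- over wild-type. Of the 5 markers tested, 2 were called lower and 0 higher in Tg46 than in Lgals7-/-, beside 7.73% and 8.43% of all genes. They were Ngp, with 5, 18 and 3 counts, and Mmp8, with 6, 17 and 6. Their ratios were 0.292 (0.0792 to 0.762) and 0.365 (0.112 to 0.921). Other markers of the list went the other way in Tg46 over Lgals7-/-, with intervals that included 1. They were Ltf at 1.73 (0.774 to 4.29), Lcn2 at 2.67 (0.735 to 16.9), Retnlg at 1.24 (0.418 to 3.99) and Elane at 1.38 (0.169 to 17.6). Csf3r, the receptor of the growth factor G-CSF, held 12, 16 and 0 counts. Against the floor in wild-type it was 2.06-fold higher in Tg46 and 2.80-fold higher in Lgals7-/-. Its ratios to the 0 counts of wild-type were 12.9 and 17.3 with 0.5 counts added, and their exact intervals began at 1.43 and 2.02. S100a8, an abundant neutrophil transcript, held 0, 4 and 0. Csf3r and S100a8 were chosen after their values were seen. The part of neutrophils in the Csta1 counts was not tested.

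**Figure D1:**
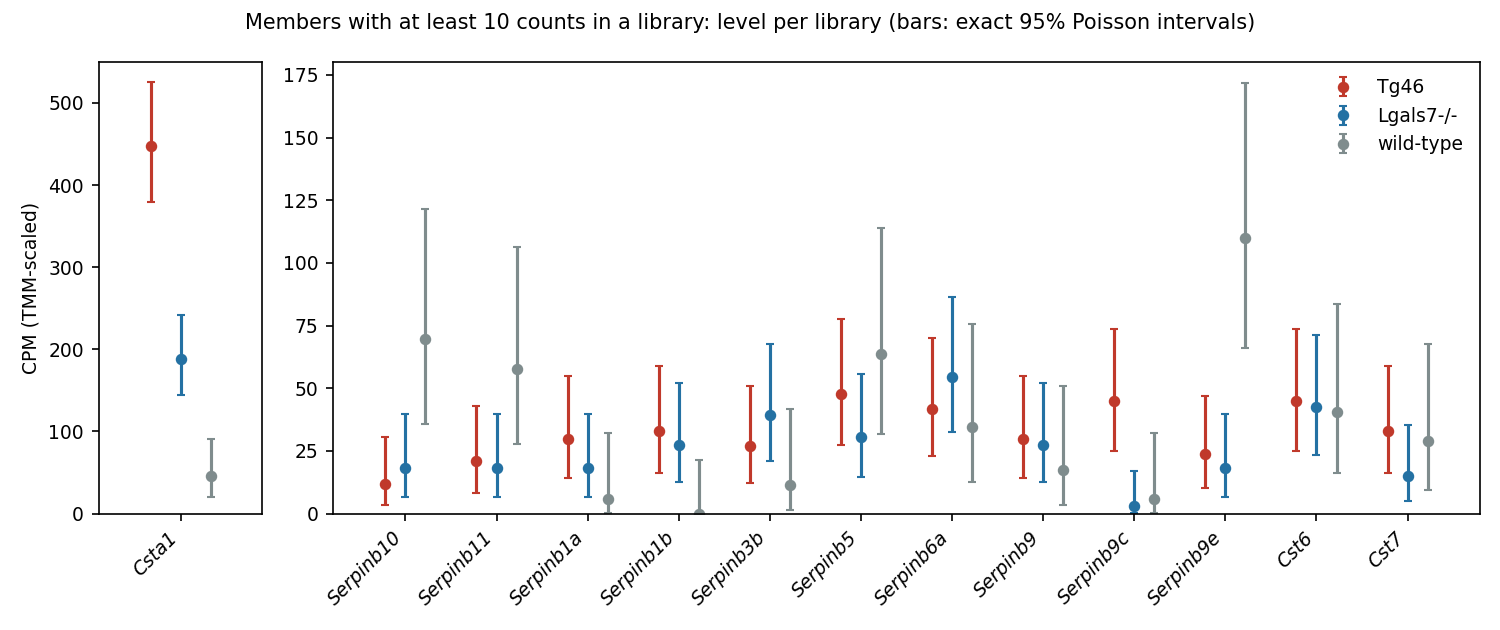
Scaled counts in CPM (vertical axis, linear, separate scale for Csta1) of the 13 genes with at least 10 counts in a library, with 1 point per library and exact 95% Poisson intervals as bars. Csta1 lies at 448 CPM in Tg46, 188 in Lgals7-/- and 46.3 in wild-type, and Serpinb9e and Serpinb10 have their highest points in wild-type.

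The other stefins and the type 2 cystatins gave little signal. Cstb, the gene of stefin B, held 2 counts in Tg46 and 0 in the other libraries, and Stfa1, Stfa2, Stfa2l1, Stfa3 and Csta2 held 0 to 2 counts per library. Cst3, the gene of cystatin C, which most tissues transcribe strongly, held 4 counts in Tg46, 1 in Lgals7-/- and 0 in wild-type. With such counts and the low library totals, whether the deposited table is partial or was counted on 1 strand is not known, so a low count here does not show that a gene was silent. Cst6 encodes cystatin E/M, an inhibitor of legumain and cathepsins that the epidermis needs for normal cornification. It held 15 counts in Tg46, 14 in Lgals7-/- and 7 in wild-type, or 44.8, 42.5 and 40.5 CPM, levels that overlapped closely. Its ratios were 1.05 (0.474 to 2.35) in Tg46 over Lgals7-/- and 1.07 (0.424 to 3.20) in Tg46 over wild-type.

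Cst7 encodes cystatin F, made by cytotoxic lymphocytes and myeloid cells. It held 11 counts in Tg46, 5 in Lgals7-/- and 5 in wild-type, with a ratio of 2.05 (0.692 to 7.93) in Tg46 over Lgals7-/- and 1.08 (0.363 to 4.16) in Tg46 over wild-type, and was not called. The 9 NK and cytotoxic T cell markers summed to 40 counts in Tg46, 69 in Lgals7-/- and 29 in wild-type, with a ratio of 0.569 (0.376 to 0.853) in Tg46 over Lgals7-/-. Klrb1c held 2 and 19 of the counts in Tg46 and Lgals7-/-, and without it, a choice made after seeing the data, the ratio was 0.746 (0.476 to 1.16). Cst8, a cystatin known from the male reproductive tract, held 1 count in Tg46, 3 in Lgals7-/- and 6 in wild-type. Its neighbours Cst11, Cst12 and Cst13 held 3 counts each in Lgals7-/- and at most 1 in Tg46 and in wild-type.

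Summed over all 17 cystatin and stefin genes, counts were 188 in Tg46, 100 in Lgals7-/- and 28 in wild-type. The ratio of these sums was 1.85 (1.44 to 2.38) in Tg46 over Lgals7-/-, 3.46 (2.32 to 5.35) in Tg46 over wild-type and 1.87 (1.22 to 2.96) in Lgals7-/- over wild-type. The difference rested on Csta1. Without it the 16 other genes summed to 38, 38 and 20 counts, and the ratios were 0.982 (0.610 to 1.58), 0.980 (0.556 to 1.78) and 0.997 (0.566 to 1.81).

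**Figure D2:**
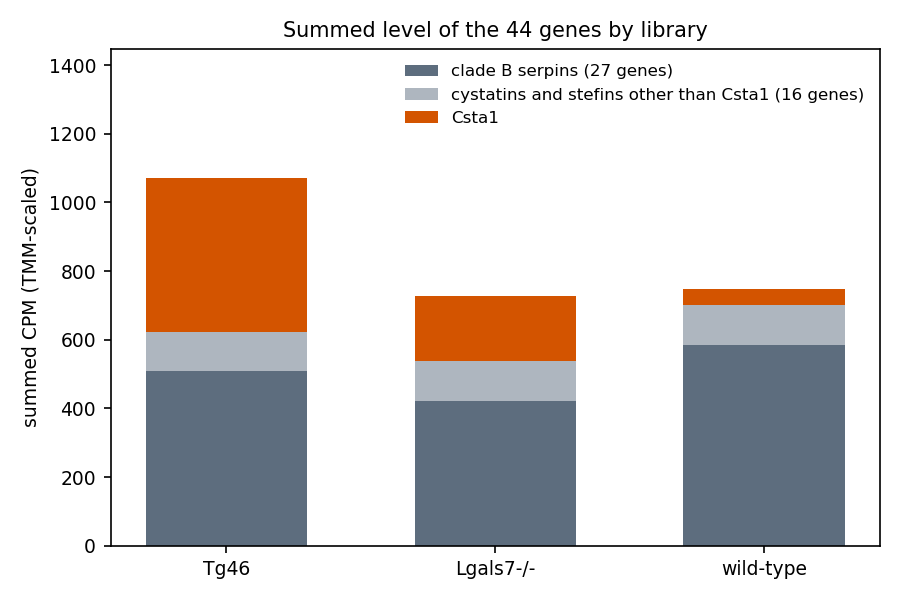
Summed scaled counts in CPM (vertical axis) of the 44 genes in each library, stacked as 27 clade B serpins, 16 cystatins and stefins other than Csta1, and Csta1. The totals are 1071 CPM in Tg46, 726 in Lgals7-/- and 747 in wild-type, and the segment of Csta1 is 448, 188 and 46.3 CPM.

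The serpins had no such single gene. Their 27 genes summed to 171 counts in Tg46, 139 in Lgals7-/- and 101 in wild-type, or 510.2, 422 and 585 CPM. The ratio of the sums was 1.21 (0.960 to 1.52) in Tg46 over Lgals7-/- and 0.873 (0.679 to 1.13) in Tg46 over wild-type. In Lgals7-/- over wild-type it was 0.722 (0.555 to 0.943), but the interval included 1 with upper-quartile factors (0.838, 0.644 to 1.09) and with TMM factors over all identifiers (0.797, 0.613 to 1.04). The chemosensory (olfactory, vomeronasal, taste and trace amine) receptor genes, which skin is not known to use, were summed too. Their ratios were 0.779 (0.744 to 0.816) in Lgals7-/- over wild-type and 0.719 (0.686 to 0.754) in Tg46 over wild-type. Of the 132 tested, 42.4% and 45.5% were called lower and 19.7% and 3.79% higher. Over all genes tested 13.7% and 13.9% were called lower and 13.3% and 13.7% higher. Of the 132, 62 had at least 10 counts in the wild-type library, the shallowest, against 28 for Tg46 and 59 for Lgals7-/-. Passing the filter through a high wild-type count favoured a lower call, so these percentages do not measure a deficit of the receptor genes. The 12 serpins of chromosome 1 gave 0.656 (0.441 to 0.980) in Lgals7-/- over wild-type, with an interval that included 1 with library totals (0.688, 0.463 to 1.03), and the 15 of chromosome 13 gave 0.782 (0.546 to 1.13). Against the keratinocyte markers, a scaling chosen after seeing the data, the serpin sum was lower than wild-type in Tg46 and in Lgals7-/-, with ratios of 0.332 and 0.348. The marker sums were themselves 2.63 and 2.08 times wild-type, so these ratios carry mainly the difference in the markers. They were given no interval and do not measure serpin counts per keratinocyte.

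Among the serpins of chromosome 1, several are keratinocyte genes. Serpinb5, which encodes maspin, a serpin of epithelial cells that does not act as a classical protease inhibitor, held 16 counts in Tg46, 10 in Lgals7-/- and 11 in wild-type. Its ratios were 1.54 (0.671 to 3.87) in Tg46 over Lgals7-/- and 0.740 (0.327 to 1.79) in Tg46 over wild-type, and at 0.479 (0.182 to 1.24) in Lgals7-/- over wild-type it passed 2-fold with an interval that included 1. Serpinb3b, of the squamous cell carcinoma antigen group, held 9, 13 and 2 counts in Tg46, Lgals7-/- and wild-type, and its ratio in Lgals7-/- over wild-type was 2.83 (0.772 to 31.1). It shares 93.4% of its coding sequence with Serpinb3c, and an exon of one overlaps the other in the annotation. Together the 4 Serpinb3 copies held 21, 21 and 5 counts, with ratios of 0.982 (0.510 to 1.89) in Tg46 over Lgals7-/-, 2.02 (0.795 to 7.35) in Tg46 over wild-type and 2.05 (0.809 to 7.48) in Lgals7-/- over wild-type.

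Serpinb10 (Entrez 241197, chromosome 1, 107529003 to 107549271, plus strand) held 4 counts in Tg46, 6 in Lgals7-/- and 12 in wild-type. In humans its product, bomapin, is known from blood-forming cells. It was highest in wild-type. Relative to that library it was 5.39-fold lower (1.76 to 24.8) in Tg46 and 3.66-fold lower (1.32 to 12.4) in Lgals7-/-. Serpinb2, the urokinase inhibitor PAI-2, shares 291 bases of exon with Serpinb10 on the same strand, and held 7, 3 and 1 counts. Serpinb11 (Entrez 66957, chromosome 1, 107361198 to 107380475, plus strand) held 7 counts in Tg46, 6 in Lgals7-/- and 10 in wild-type. It was 3.08-fold lower (1.05 to 10.6) in Lgals7-/- than in wild-type, a call that was lost with library totals, upper-quartile factors or TMM factors over all identifiers. In Tg46 it was 2.72-fold lower than wild-type with an interval of 0.952 to 8.58, and it was called lower there with library totals.

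The remaining genes of chromosome 1 stayed under 10 counts. Serpinb8, whose human product inhibits furin, held 9 counts in Tg46, 0 in Lgals7-/- and 3 in wild-type. Outside the set of genes tested, it was 2.95-fold higher in Tg46 than in Lgals7-/- against the floor of 3 counts. Its ratio to the 0 counts of Lgals7-/- was 18.7 with 0.5 counts added, and the exact interval began at 1.94. Serpinb13, whose human product inhibits cathepsins in keratinocytes, held 1, 4 and 6 counts in Tg46, Lgals7-/- and wild-type, with a ratio of 0.119 (0.00187 to 0.708) in Tg46 over wild-type that rests on 1 count. Serpinb7 held 3, 6 and 0 counts and Serpinb12 3, 4 and 0. Serpinb8 and Serpinb13 were singled out after their values were seen. Serpinb3a, Serpinb3c and Serpinb3d held 1 to 6 counts per library.

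The serpins of chromosome 13 include inhibitors of the granule proteases of leukocytes, and the calls here fell in both directions. Serpinb1b (Entrez 282663, chromosome 13, 33078575 to 33094380, plus strand), a close copy of the elastase and cathepsin G inhibitor Serpinb1a, held 11 counts in Tg46, 9 in Lgals7-/- and 0 in wild-type. Against the floor of 3 counts in the wild-type library it was 1.89-fold higher in Tg46 and 1.57-fold higher in Lgals7-/-. The exact intervals of its ratios against wild-type began at 1.29 and 1.04. Serpinb1a, 90.7% identical in coding sequence, held 10, 6 and 1 counts and was not called. Summed with Serpinb1c, the 3 copies held 25, 16 and 6 counts, with ratios of 2.02 (0.860 to 6.40) in Tg46 over wild-type and 1.33 (0.520 to 4.37) in Lgals7-/- over wild-type, and neither was called. With 5 counts added the ratios of Serpinb1b alone were 1.65 and 1.47, and both of its calls were lost.

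Serpinb9c (Entrez 20707, chromosome 13, 33149275 to 33159742, minus strand) held 15 counts in Tg46, 1 in Lgals7-/- and 1 in wild-type, so it was high in a single library. Its ratio was 10.1 (2.27 to 620.2) in Tg46 over Lgals7-/- and 5.33 (1.19 to 326) in Tg46 over wild-type. With 5 counts added in place of 0.5 the ratios were 3.27 and 1.72, and the call against wild-type was lost. Its closest relative, Serpinb9, the granzyme B inhibitor, is 82.0% identical and held 10, 9 and 3 counts. Serpinb9e (Entrez 20710, chromosome 13, 33249612 to 33260850, plus strand) held 8 counts in Tg46, 6 in Lgals7-/- and 19 in wild-type and was high in wild-type. It was 4.45-fold lower (1.93 to 12.2) in Tg46 and 5.72-fold lower (2.32 to 18.5) in Lgals7-/-. It is 95.3% identical to Serpinb9g. Summed over the near-identical copies Serpinb9d, Serpinb9e, Serpinb9f and Serpinb9g, counts were 15, 17 and 22, with ratios of 0.355 (0.170 to 0.709) in Tg46 over wild-type and 0.408 (0.202 to 0.800) in Lgals7-/- over wild-type. Serpinb9e held 19 of the 22 wild-type counts, so this sum mostly repeats its value and is no separate support. Serpinb9d, Serpinb9f and Serpinb9g held 1 count each in wild-type and 1 to 5 in Tg46 and Lgals7-/-.

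Serpinb6a, an inhibitor of cathepsin G, held 14 counts in Tg46, 18 in Lgals7-/- and 6 in wild-type, with ratios of 0.770 (0.352 to 1.63) in Tg46 over Lgals7-/- and 1.15 (0.434 to 3.82) in Tg46 over wild-type. Of its 5409 bases of exon, 1587 overlap exons on the other strand, of 1110046J04Rik, Nqo2 and Ripk1, so these counts are uncertain. The sources do not say whether reads were counted by strand. Serpinb9 was not called either, with ratios of 1.09 (0.399 to 3.04) in Tg46 over Lgals7-/- and 1.55 (0.442 to 9.72) in Tg46 over wild-type. Serpinb9b, Serpinb9d, Serpinb9f, Serpinb9g, Serpinb1c, Serpinb6b, Serpinb6c, Serpinb6d and Serpinb6e held 0 to 7 counts per library.

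Counted together, 2 of the 13 genes were called higher (Csta1 and Serpinb9c) and 0 lower in Tg46 than in Lgals7-/-, beside 8.43% higher and 7.73% lower among the 12940 genes tested. In Tg46 over wild-type 3 were higher (Csta1, Serpinb1b and Serpinb9c) and 2 lower (Serpinb9e and Serpinb10), against 13.7% and 13.9% of all genes. In Lgals7-/- over wild-type 2 were higher (Csta1 and Serpinb1b) and 3 lower (Serpinb9e, Serpinb10 and Serpinb11), against 13.3% and 13.7%. By fold alone, at 2-fold with no condition on the interval, 3 of the 13 were higher and 0 lower in Tg46 over Lgals7-/- (14.0% and 12.8% of all genes), 4 and 3 in Tg46 over wild-type (25.6% and 18.2%), and 4 and 4 in Lgals7-/- over wild-type (25.3% and 18.6%). With 13 genes these counts are near the background. Both comparisons against wild-type use the same wild-type library. The median log2 ratio of the 13 genes was 0.25 in Tg46 over Lgals7-/-, 0.20 in Tg46 over wild-type and 0.02 in Lgals7-/- over wild-type, beside -0.03, 0.11 and 0.10 over all genes tested. Without the filter, over genes with a count in any of the 3 libraries, the medians were 0.09, 0.27 and 0.29, beside -0.03, 0.11 and 0.03.

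**Figure D3:**
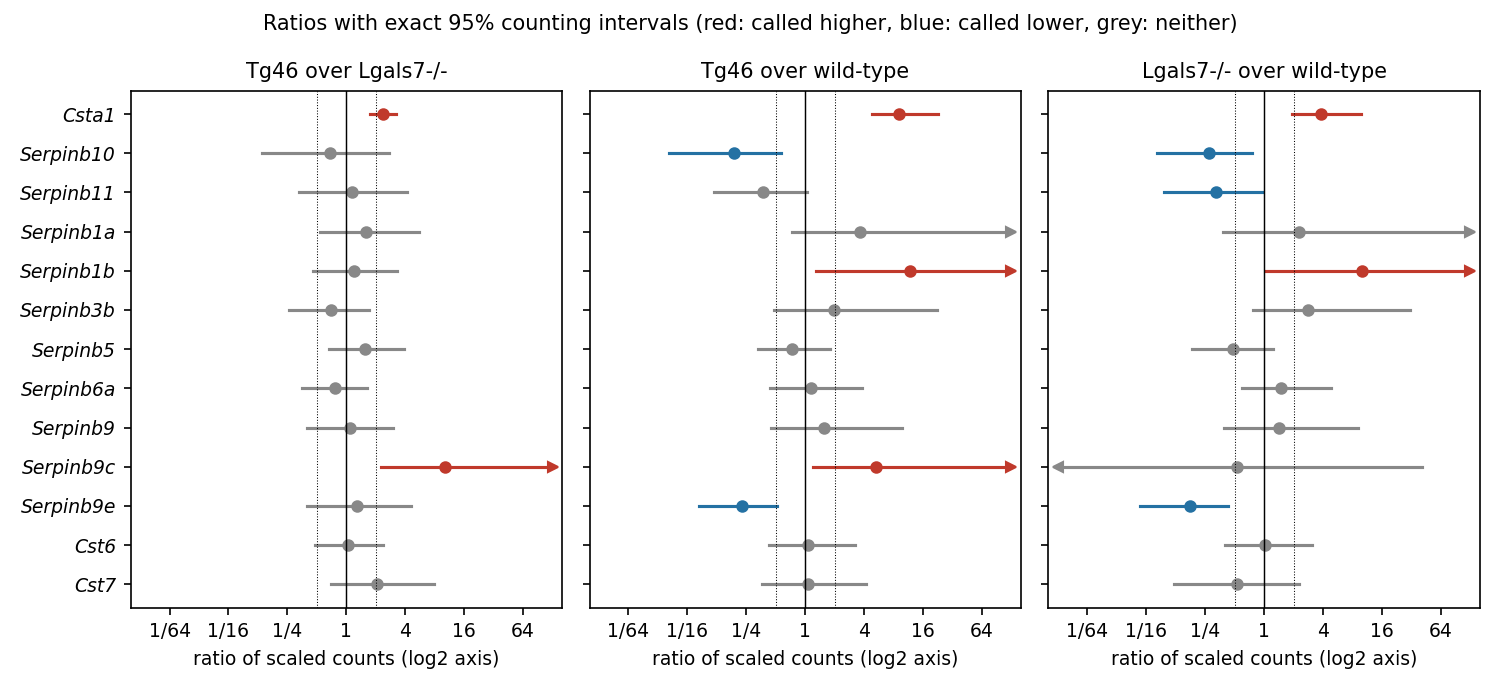
Ratio of scaled counts (horizontal log2 axis) for the 13 genes in each of the 3 comparisons, with exact 95% counting intervals as lines; an arrow marks an interval that runs off the axis and dotted lines mark 2-fold. Csta1 is called higher in all 3 panels, at 2.37, 9.13 and 3.86, and the genes called lower are called so only against wild-type.

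The 44 genes were set against the chemosensory receptor genes. Per kb of exon, the 1480 chemosensory receptor genes with a gene model held 2.30, 2.50 and 3.17 CPM in Tg46, Lgals7-/- and wild-type when pooled, and 95% of them lay at or under 10.2, 13.1 and 19.7. The serpins pooled at 8.28, 6.85 and 9.48 CPM per kb, the type 2 cystatins at 8.87, 9.31 and 10.2 and the stefins at 73.5, 32.1 and 8.23, where all genes pooled at 10.2, 9.23 and 9.65. The level of the 95th receptor percentile was passed by 12 of the 44 genes in Tg46, 7 in Lgals7-/- and 8 in wild-type. The share of all genes that passed it was not computed, so these numbers have no background beside them. A gene with short exons can pass on few counts, as Cst11 and Cst12 did in Lgals7-/- with 3 counts each. Cst7 passed it in all 3 libraries, 19 genes in 1 or 2, and 24 in none. Csta1 passed it in Tg46 and Lgals7-/-, and at 16.6 CPM per kb did not in wild-type. Whether counts at or under this level are transcripts of the gene was not tested.

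**Figure D4:**
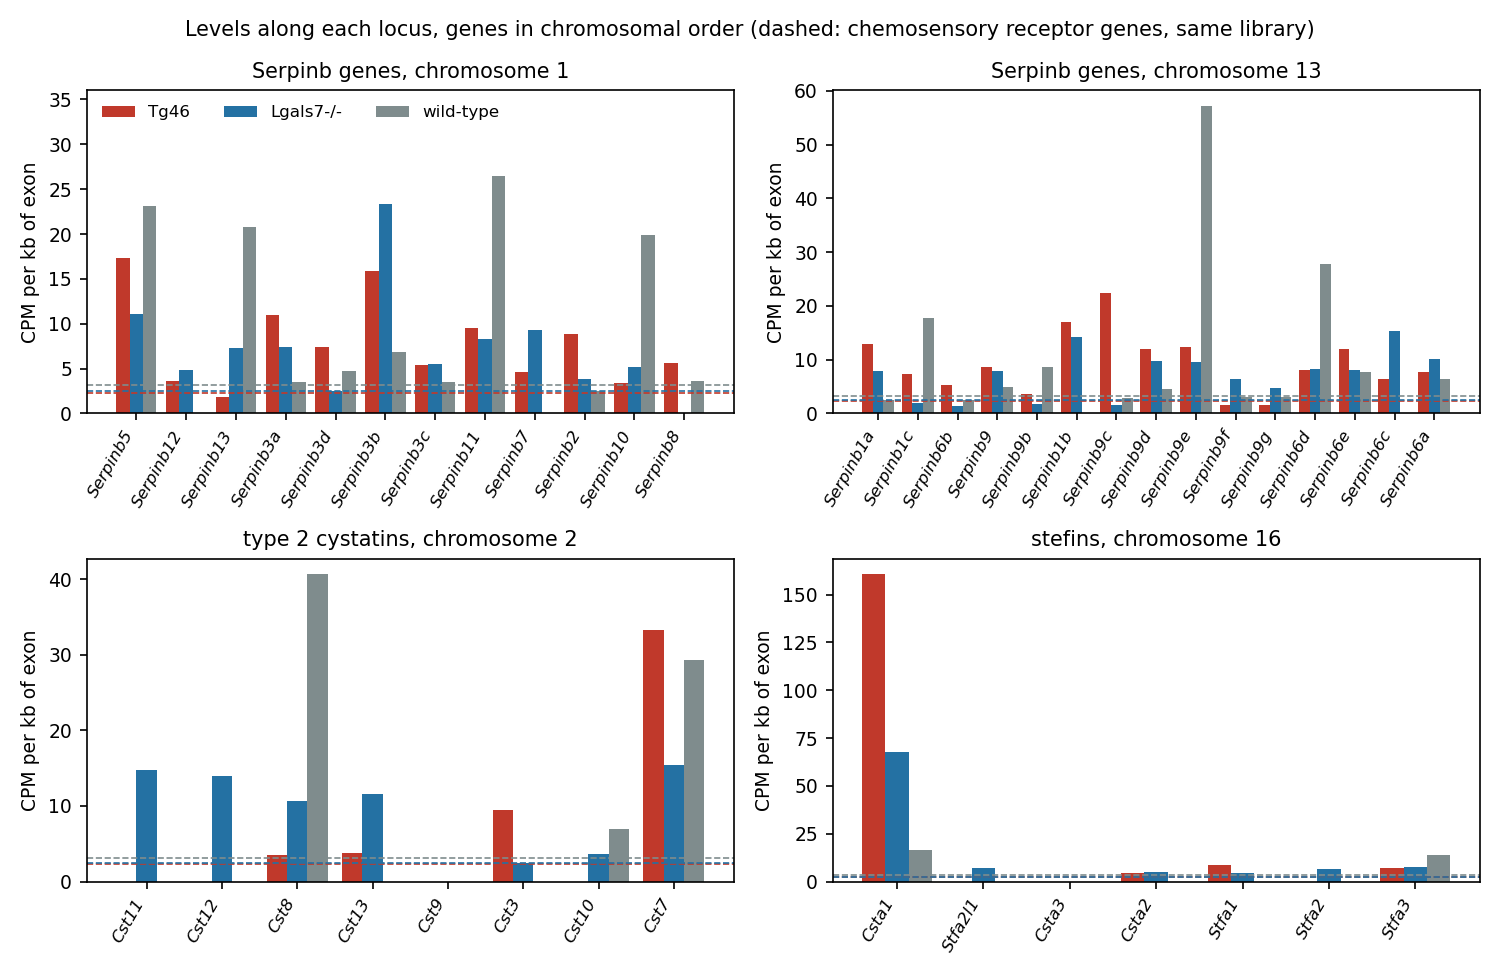
Level per kb of merged exon (vertical axis, CPM per kb, scales differ between panels) of each gene in chromosomal order at 4 loci, with 1 bar per library; dashed lines give the pooled level of the chemosensory receptor genes in the same library. On chromosome 16 Csta1 reaches 161 in Tg46 and 67.7 in Lgals7-/-, and on chromosome 13 Serpinb9e reaches 57.2 in wild-type.

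Lists of cysteine and serine proteases, some of which these inhibitors bind, were examined. Of 11 cysteine proteases, 8 had 10 counts in a library, and their summed counts were 144 in Tg46, 139 in Lgals7-/- and 75 in wild-type. The ratios of the sums were 1.02 (0.800 to 1.29) in Tg46 over Lgals7-/-, 0.990 (0.744 to 1.33) in Tg46 over wild-type and 0.973 (0.729 to 1.31) in Lgals7-/- over wild-type. Ctsz, cathepsin Z, held 20, 6 and 0 counts and was 3.10-fold higher (1.27 to 9.96) in Tg46 than in Lgals7-/-. Against the floor in wild-type it was 3.44-fold higher in Tg46. Its ratio to the 0 counts of wild-type was 21.1 with 0.5 counts added, and the exact interval began at 2.55. The exons of Ctsz overlap those of Nelfcd on the other strand. Ctsh, cathepsin H, held 5, 11 and 0 counts. Against the floor in wild-type it was 1.92-fold higher in Lgals7-/-. Its ratio to the 0 counts of wild-type was 12.1 with 0.5 counts added, and the exact interval began at 1.32. Ctso, cathepsin O, held 12, 6 and 13 and was 3.96-fold lower (1.46 to 13.2) in Lgals7-/- than in wild-type. In Tg46 over Lgals7-/-, over wild-type and in Lgals7-/- over wild-type, 1, 1 and 1 of the 8 were called higher and 0, 0 and 1 lower. Over all genes tested 8.43%, 13.7% and 13.3% were called higher and 7.73%, 13.9% and 13.7% lower. The log2 medians of the 8 were -0.11, -0.35 and -0.29, beside -0.03, 0.11 and 0.10 over all genes tested.

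Of 23 serine proteases, 10 had 10 counts in a library, and the list summed to 241 counts in Tg46, 205 in Lgals7-/- and 95 in wild-type. The ratios of the sums were 1.15 (0.954 to 1.40), 1.31 (1.03 to 1.68) and 1.13 (0.884 to 1.46) in Tg46 over Lgals7-/-, Tg46 over wild-type and Lgals7-/- over wild-type. Klk10, a kallikrein of the epidermis, held 61, 29 and 21 counts and was 2.05-fold higher (1.31 to 3.33) in Tg46 than in Lgals7-/-. Hpn, the transmembrane protease hepsin, held 7, 14 and 1 counts with a ratio of 5.07 (1.12 to 311) in Lgals7-/- over wild-type. No other gene of this list was called, and none was called in Tg46 over wild-type. Over all genes tested 8.43%, 13.7% and 13.3% were called higher in these comparisons. The log2 medians of the 10 were -0.14, 0.55 and 0.52, beside -0.03, 0.11 and 0.10 over all genes tested. Elane and Ctsg, the neutrophil elastase and cathepsin G that Serpinb1a binds, held 0 to 4 counts per library, and Gzmb, the granzyme that Serpinb9 binds, held 2, 2 and 0.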

How the data were processed

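Total RNA of 3 pooled papillomas made each library, per the labels' protocols. The authors deposited unnormalised counts of reads, 1 row per Entrez identifier. The submitters' processing notes name mm10; in the sources used here no aligner, counter or strand setting is given. Symbols came from RefSeq (GRCm38.p6) for 23968 of 24028 identifiers and exons from GENCODE M21, where all 44 genes had a model. Libraries were scaled with edgeR 4.0.16 TMM factors in R 4.3.3 (0.945, 1.05 and 1.00 for Tg46, Lgals7-/- and wild-type) over the 12940 genes with 10 counts in a library. Ratios and exact intervals were checked on simulated Poisson counts, the model that the intervals assume. That check could not cover duplicate reads or variation between tumours. Near-identical copies share at least 85% of their GENCODE coding sequence, used in place of the protein sequences planned. Genes named are those with 10 counts, the others by range, and of each protease list up to 4 called. Members and lists were chosen with earlier results of these data known. The alternatives are scaling by totals, by upper quartiles or by DESeq2 1.42.0, other filters, 5 added counts, other thresholds and summed copies. Python 3.11.15, scipy 1.17.1 and Biopython 1.88 were used.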

Additional observations from a re-analysis of the deposited data

How the results depend on the processing

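No paired analysis was possible because a single library stands for each genotype. Among 198 ratios of single genes computed again, 196 stayed within their interval and 2 (Csta1 scaled to keratinocyte markers) lay outside it. Of the ratios that had been called, 0 reversed. Ratios that were not called were not counted as reversed, and some of them crossed 1. Serpinb1a in Lgals7-/- over wild-type, for example, went from 2.27 to 0.962 with 5 counts added. Of 66 recomputed counts of called genes, 53 stayed within 1.5 times. A filter on 30 counts over the libraries, which leaves 5 genes, gave 1 higher in each comparison and 1 lower in each against wild-type. With 5 counts added, 1 (Csta1) was higher in each comparison against wild-type. A 4-fold threshold left 1 higher in Tg46 over Lgals7-/-, and 1 higher and 1 lower in Lgals7-/- over wild-type. In that comparison 2-fold alone gave 4 higher and summed copies 1. Without a filter 4 were lower in Tg46 over wild-type. Among medians, that of Lgals7-/- over wild-type, 0.02, reversed to -0.018 with DESeq2 size factors, -0.45 over genes with no opposite-strand exon, -0.27 with 5 counts added and -0.71 with summed copies, and that of Tg46 over wild-type to -0.17 with 5 counts added; the cause was not tested. The cystatin sums without Csta1 were 0.982, 0.980 and 0.997 in Tg46 over Lgals7-/-, Tg46 over wild-type and Lgals7-/- over wild-type. Scaled to keratinocyte markers, the cystatin ratio against wild-type was 1.32 in Tg46 and 0.902 in Lgals7-/-, and the serpin ratios were 0.954, 0.332 and 0.348. TMM over all identifiers and this scaling were chosen after seeing the data. Depth limits all genes under 10 counts.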
